A study of Sus scrofa with 6 samples.

Results

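The tumor necrosis factor (TNF) superfamily was examined in the abdominal aorta of miniature pigs as 35 of the 30477 genes in the expression table. Members were taken by gene name: names beginning with TNFSF or TNFRSF, the family genes with older names (TNF, LTA, LTBR, CD40, CD40LG, CD27, CD70, FASLG, EDAR and NGFR) and the TNF receptor associated factors, or TRAFs. They comprised 15 ligands, 16 receptors (11 that bind TRAFs directly and 5 with a death domain) and 4 TRAFs (TRAF1, TRAF4, TRAF5 and TRAF6). LTB, TRAF2 and TRAF3 are not analysed here, and FAS was listed by identifier only and is treated with the relatives outside the rule. The samples were 3 male Wuzhishan pigs fed normal chow (NC) and 3 fed a diet high in fat, cholesterol and fructose (HFCF), both for 6 months, with 1 library per pig. The labels give an age of 3 to 4 months without saying at which point, and the methods give a higher age at acquisition. No allele or drug distinguished the groups. Whole aortic tissue was used, so each value mixes vessel wall cells with the leukocytes and blood present.

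Ligands of this family are mostly membrane proteins of leukocytes that act as trimers, on the cell surface or after being shed. Their receptors either carry a death domain, through which TRADD and FADD can be recruited, or bind TRAFs directly, which connect them to the NF-kB and MAP kinase pathways. In atherosclerotic arteries the family is known for its part in the cross-talk of macrophages, lymphocytes, endothelium and smooth muscle, with CD40 and its ligand among the best known pairs.

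Values are FPKM, fragment counts scaled by transcript length and by library size, so levels can be compared between genes per length. Read totals were not given per library. The smallest steps between low FPKM values gave relative depths of 1.09 and 1.37 in the second and the third NC pig and 1.03 to 1.07 in the HFCF pigs, with the first NC pig set to 1. The diets were compared with limma on log2(FPKM + 0.1) in 15384 genes whose mean reached 0.1 FPKM, with Benjamini-Hochberg adjustment over all of them. Because of the added 0.1, changes of genes with low FPKM are understated. A difference was called at an adjusted p under 0.05. Over all genes tested the median log2 fold change was 0.32, and it took values between -0.07 and 0.09 under 3 other scalings, so a member with a log2 fold change near 0.32 moved with the average gene. Contractile smooth muscle markers, summed over 10 genes, held 16551 to 23921 FPKM in the NC pigs and 8428 to 13355 FPKM in the HFCF pigs, which fits the labelled tissue.

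Receptors for TNF and the ligand TNFSF12 were the most abundant members, and most other ligands were scarce. In the NC group TNFRSF1A, the broadly expressed death-domain receptor for TNF, had the highest mean, 61.5 ± 2.75 FPKM (SD, n = 3). TNFRSF1B, the second TNF receptor, followed with 33.2 ± 7.42 FPKM, TNFSF12 with 33.0 ± 3.07 FPKM and LTBR, the lymphotoxin beta receptor, with 31.1 ± 2.32 FPKM, and these 3 did not differ in level beyond their spread (SD, n = 3 each). TNFRSF12A and CD40 came next, at 10.9 ± 3.32 and 10.8 ± 1.06 FPKM. In the HFCF group TNFRSF1A (60.4 ± 8.48 FPKM), TNFSF12 (60.0 ± 1.66 FPKM) and TNFRSF1B (52.7 ± 21.9 FPKM) led within their spread, and LTBR (29.6 ± 0.32 FPKM) and CD40 (24.3 ± 2.49 FPKM) followed. TNFSF13B moved from place 25 among the 35 members in the NC group to place 10 in the HFCF group, TNFSF15 from 23 to 12 and TNFSF8 from 28 to 18. CD70 and TNFRSF4 were listed at 0 in all 3 NC pigs.

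**Figure D1:**
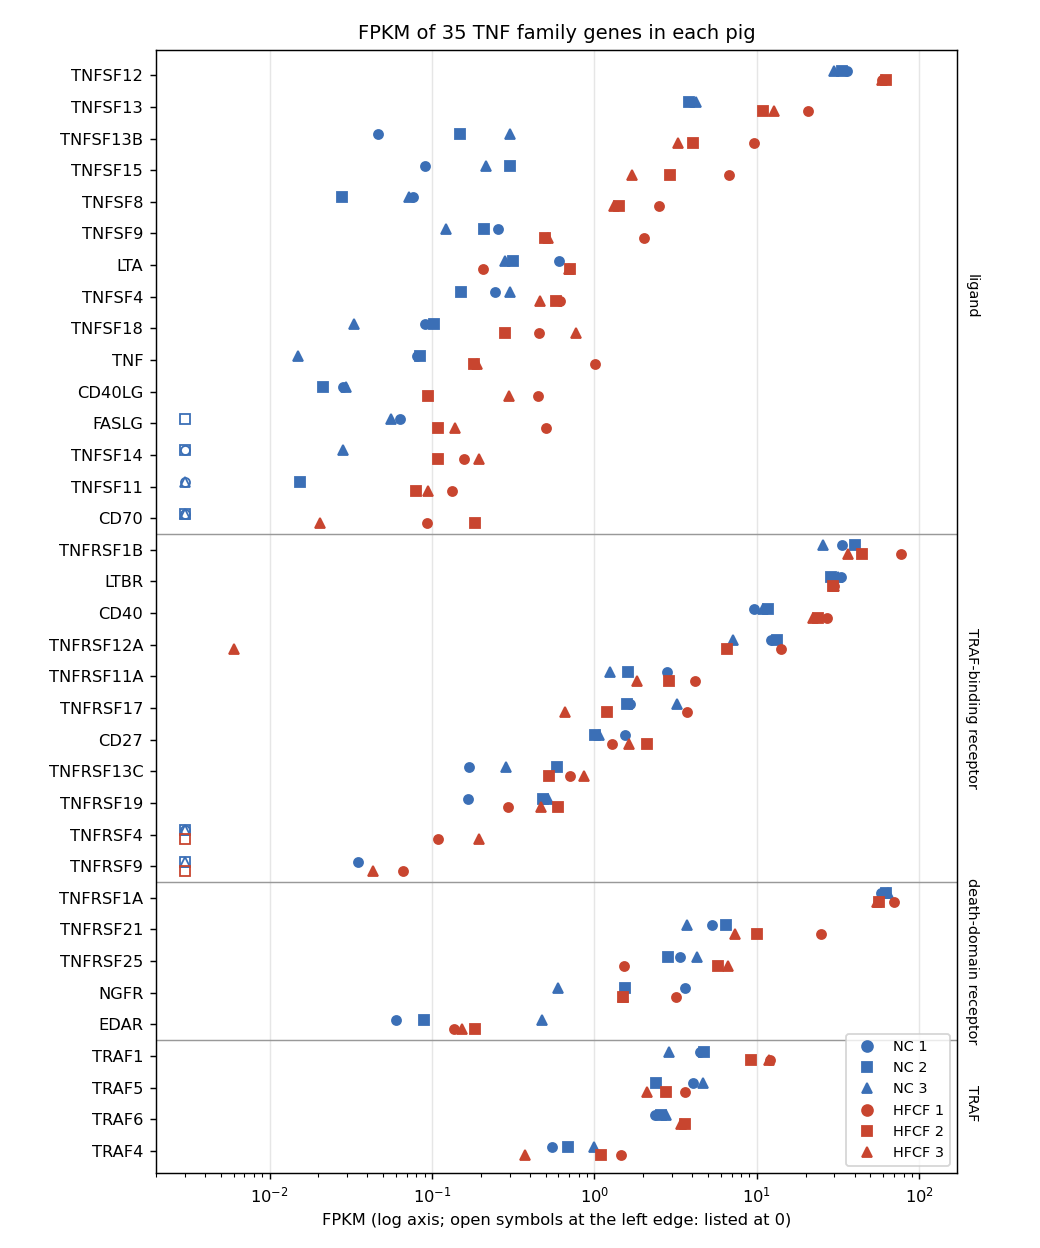
FPKM of the 35 members in each pig on a log axis, by group of members and with open symbols at the left edge for values listed at 0. For TNFSF13B, TNFSF15 and TNFSF8 the red HFCF symbols lie far to the right of the blue NC symbols, whereas those of TNFRSF1A and LTBR lie on top of each other, and TNFRSF12A has a lone HFCF symbol at 0.00605 FPKM.

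Of the members 30 could be tested, and the calls fell mainly on ligands. Adjusted p-values under 0.05 (limma) were reached by 8 of the 30 tested members, all higher in the HFCF group: the ligands TNFSF13B, TNFSF15, TNFSF8, TNFSF13, TNFSF18 and TNFSF12, the receptor CD40 and the adaptor TRAF1. That share, 26.7%, stood beside 22.8% of all tested genes called higher (28.9% were called in either direction). After rescaling, 8 of 30 members (26.7%) were called by median ratios, where 13.2% of genes were called higher. By quantiles it was 7 (23.3%) against 11.4%, and as TPM 8 (26.7%) against 14.5%. All of these counts include TNFSF8, and those by median ratios and as TPM also include TNFSF18. Both genes passed the filter on low values only through their HFCF level, so the distance between the shares is not read as a result. Of the 25 members with an NC mean of at least 0.1 FPKM, 6 were called without rescaling (24.0%). No member was called lower, against 6.16% of all tested genes, and 0 members were lower at an unadjusted p under 0.05 (limma), where 14 members were higher and 42.3% of all tested genes passed in either direction. By group, 6 of 12 tested ligands, 1 of 14 tested receptors and 1 of 4 TRAFs were called. The median log2 fold change was 1.60 for the ligands, 0.29 for the receptors, 0.34 for the TRAFs and 0.32 for all tested genes. In addition, 5 ligands (CD40LG, FASLG, TNF, TNFSF8 and TNFSF18) passed the filter on low values only through their HFCF level, and 2 of them were called. Among the 7 ligands with an NC mean of at least 0.1 FPKM, 4 were called and the median was 1.67. By the rule of the study, which asked for a ratio of group means over 2 or under 0.5 together with an unadjusted p under 0.05, 12 members were higher and 0 lower, where 20.7% of all tested genes were higher and 4.82% lower (25.5% in all). TNF, TNFSF9, TNFSF4, CD40LG and TNFRSF21 met that rule but not the adjusted one, and TNFSF12 the reverse. The values of the groups did not overlap in 15 members, all higher in the HFCF group, where 36.1% of all tested genes showed no overlap in that direction and 12.1% in the other (48.2% in all). In bulk tissue, more cells of a type and more RNA per cell cannot be told apart in any of these comparisons.

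**Figure D2:**
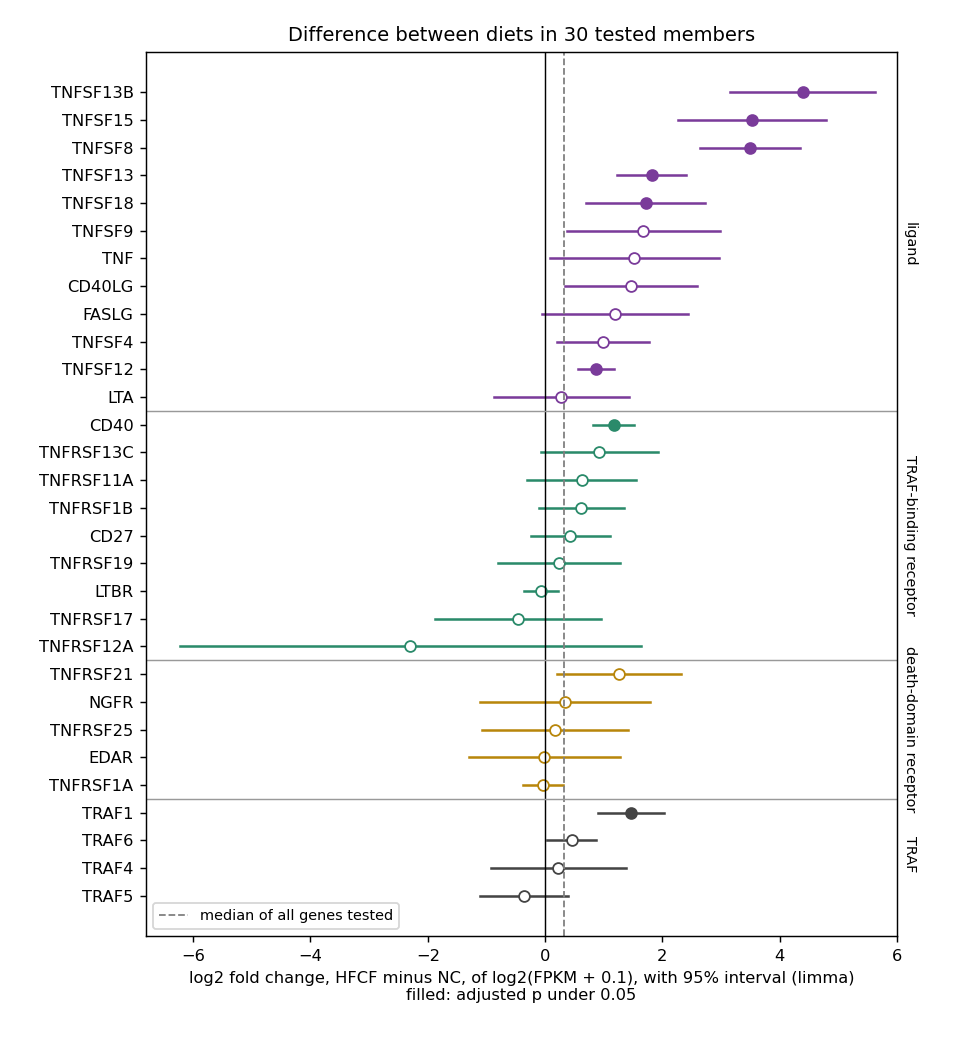
Log2 fold change of log2(FPKM + 0.1), HFCF minus NC, with its 95% interval from limma for the 30 tested members, and a dashed line at the median of all tested genes (0.32). Filled points have an adjusted p under 0.05. They are 6 ligands, CD40 and TRAF1, whereas receptor intervals mostly span the dashed line.

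The B cell ligands TNFSF13B and TNFSF13 rose. TNFSF13B (ENSSSCG00000009542) encodes BAFF, a survival factor for B cells made largely by myeloid cells. It had 0.0466, 0.148 and 0.3002 FPKM in the NC pigs and 9.64, 4.03 and 3.26 FPKM in the HFCF pigs. Every HFCF pig was above every NC pig by more than the whole NC range, and the first HFCF pig was the highest. The ratio of group means was 34.2 (log2 fold change 4.39, standard error (SE) 0.52, adjusted p = 0.00236, limma). Because both group means rest on unequal pigs, the ratio was 22.1 without the first HFCF pig and 58.0 without the third NC pig. TNFSF13 (ENSSSCG00000036521) encodes APRIL, the ligand closest to BAFF, which supports plasma cells. It had 3.91, 3.81 and 4.19 FPKM in the NC pigs and 20.6, 10.97 and 12.7 FPKM in the HFCF pigs. The NC pigs were almost alike and the HFCF pigs lay above them without overlap (log2 fold change 1.82, SE 0.25, adjusted p = 0.00346, limma).

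TNFSF15 and TNFSF8, which lie next to each other with no coding gene between them in the RefSeq annotation of Sscrofa11.1, both rose. TNFSF15 (ENSSSCG00000034087) encodes TL1A, a T cell costimulator made by endothelium and myeloid cells. It had 0.0912, 0.302 and 0.215 FPKM in the NC pigs and 6.75, 2.93 and 1.69 FPKM in the HFCF pigs. The groups did not overlap, and the first HFCF pig was again the highest. The log2 fold change was 3.53 (SE 0.54, adjusted p = 0.00508, limma), and the ratio of group means, 18.7, was 11.4 without that pig. TNFSF8 (ENSSSCG00000036457) encodes the ligand of CD30 on activated lymphocytes. It had 0.0761, 0.0281 and 0.0726 FPKM in the NC pigs and 2.48, 1.41 and 1.31 FPKM in the HFCF pigs. It was barely present on chow and clearly present in every HFCF pig (log2 fold change 3.49, SE 0.36, adjusted p = 0.00159, limma). The ratio of group means of TNFSF8 was 29.5. The log2 fold changes depended on the pseudocount, with 1.86 for TNFSF15 and 1.34 for TNFSF8 at a pseudocount of 1 and 4.07 and 4.69 at 0.01, and both genes were called at each.

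TNFSF12 (ENSSSCG00000040188), encoding TWEAK, a broadly expressed ligand of the receptor Fn14, rose less but most evenly. It had 35.9, 33.3 and 29.8 FPKM in the NC pigs and 59.0, 61.9 and 59.2 FPKM in the HFCF pigs. The HFCF pigs differed among themselves by a factor of only 1.05, and the groups were far apart. Its log2 fold change was 0.86 (SE 0.13, adjusted p = 0.0049, limma) and lay between 0.51 and 0.77 under the 3 other scalings. With a ratio of group means of 1.82 it was the one called member below the study's threshold of 2. TNFSF12 and TNFSF13 are also direct neighbours in the RefSeq annotation, and FPKM does not show how fragments shared between overlapping transcripts of the pair were divided. TNFSF18 (ENSSSCG00000015487), encoding the ligand of the T cell receptor GITR, had 0.0904, 0.104 and 0.0330 FPKM in the NC pigs and 0.454, 0.282 and 0.768 FPKM in the HFCF pigs. All values were under 1 FPKM, the groups did not overlap, and the third HFCF pig was the highest. The log2 fold change was 1.72 (SE 0.43, adjusted p = 0.0251, limma), with 0.47 at a pseudocount of 1 and 2.58 at 0.01. Leaving out single pigs gave it adjusted p-values of 0.0306 to 0.0691 (limma), and it was no longer called when an NC pig, whichever it was, or the third HFCF pig was removed, so this call is the least secure of the 8.

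TNF itself was scarce and was not called by the adjusted p, although it met the rule of the study (ratio of group means 7.64, unadjusted p = 0.0411, limma). Without the first HFCF pig the ratio was 3.10 and the log2 fold change 0.87. TNF (ENSSSCG00000001404) had 0.0809, 0.0843 and 0.0150 FPKM in the NC pigs and 1.005, 0.182 and 0.190 FPKM in the HFCF pigs. The groups did not overlap, but the first HFCF pig stood far above the other HFCF pigs. The log2 fold change was 1.52 (SE 0.61, adjusted p = 0.103, limma), with 0.42 at a pseudocount of 1 and 2.50 at 0.01. The adjusted p of TNF (limma) lay between 0.0878 and 0.226 over 14 alternatives. TNFSF9, the ligand of the costimulator 4-1BB, had a similar layout, with 0.253, 0.209 and 0.122 FPKM in the NC pigs and 2.03, 0.497 and 0.517 FPKM in the HFCF pigs (log2 fold change 1.67, adjusted p = 0.0595, limma). Without the first HFCF pig the log2 fold change of TNFSF9 was 1.07 (adjusted p = 0.0715, limma). It was 0.67 at a pseudocount of 1 and 2.05 at 0.01. CD40LG, the ligand of CD40 on activated T cells, had 0.0283, 0.0213 and 0.0297 FPKM in the NC pigs and 0.447, 0.0938 and 0.299 FPKM in the HFCF pigs. No HFCF value of CD40LG reached the level of 1 FPKM, and its log2 fold change of 1.46 had an adjusted p of 0.0584 (limma). CD40LG was called in 3 of 14 alternatives, with adjusted p-values of 0.0284 to 0.135 (limma) and log2 fold changes of 0.31 to 2.76. TNFSF4, the OX40 ligand, had 0.151 to 0.303 FPKM on chow and 0.465 to 0.614 FPKM on the HFCF diet (log2 fold change 0.99, adjusted p = 0.062, limma), and was called in 1 of 14 alternatives (adjusted p = 0.0279 without the variance trend and up to 0.396 in the others, limma). FASLG, the ligand of the death receptor FAS on cytotoxic lymphocytes, had at most 0.0637 FPKM in the NC pigs and 0.110 to 0.503 FPKM in the HFCF pigs (adjusted p = 0.133, limma). LTA, lymphotoxin alpha, was the 1 tested ligand whose groups overlapped, with 0.280 to 0.602 FPKM on chow and 0.207 to 0.706 FPKM on the HFCF diet (adjusted p = 0.7, limma).

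The other 3 ligands stayed under the filter of 0.1 FPKM and were not tested. TNFSF14, or LIGHT, was listed at 0 in the first and the second NC pig and at 0.0283 FPKM in the third, against 0.157, 0.109 and 0.194 FPKM in the HFCF pigs. TNFSF11, or RANKL, the osteoclast factor, was listed at 0, 0.0155 and 0 FPKM in the NC pigs and at 0.133, 0.0800 and 0.0951 FPKM in the HFCF pigs. CD70, the ligand of CD27, was listed at 0 in every NC pig and had 0.0936, 0.183 and 0.0205 FPKM in the HFCF pigs. In all 3 the HFCF values lay above the NC values, where 36.1% of all tested genes showed no overlap in that direction. The share among genes under the filter was not computed. Without any filter TNFSF11 and TNFSF14 were also called, and the family count was then 10 of 35 (28.6%), where 13.3% of 21816 genes were called higher. Because that count rests partly on genes at or near 0 in the NC pigs, the distance between these shares is not read as a result.

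Summed over the 15 ligands, the level was 41.4, 38.5 and 35.5 FPKM in the NC pigs and 104.1, 84.1 and 81.6 FPKM in the HFCF pigs, a ratio of group means of 2.34. TNFSF12 made up 84.1% to 86.8% of that sum on chow and 56.7% to 73.6% on the HFCF diet. TNFSF13B went from at most 0.85% to between 3.99% and 9.26% of it. The 16 receptors summed to 154.5 to 172.4 FPKM in the NC pigs and to 164.3 to 258.5 FPKM in the HFCF pigs, so their sums overlapped. The 4 TRAFs summed to 10.4 to 11.4 FPKM and to 16.7 to 20.6 FPKM, without overlap.

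**Figure D3:**
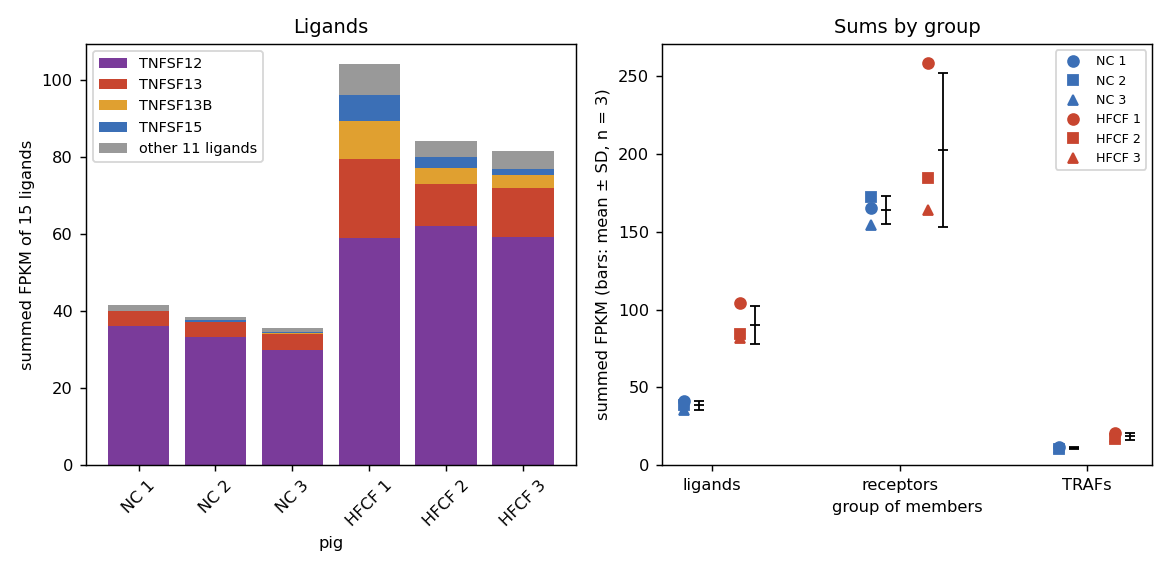
Left, summed FPKM of the 15 ligands in each pig, stacked by gene. Right, summed FPKM of ligands, receptors and TRAFs in each pig, with mean ± SD (n = 3) beside the points. Ligand sums lie between 35.5 and 41.4 FPKM on chow and between 81.6 and 104.1 FPKM on the HFCF diet, whereas receptor sums overlap.

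Among the 14 tested receptors of the rule CD40 alone was called. RELT, a receptor of the same superfamily whose name falls outside the rule, had 0.312, 0.251 and 0.230 FPKM on chow and 1.91, 0.752 and 1.08 FPKM on the HFCF diet, without overlap (log2 fold change 1.80, adjusted p = 0.0144, limma), and was called in 14 of 14 alternatives. Its log2 fold change was 0.80 at a pseudocount of 1 and 2.10 at 0.01. CD40 (ENSSSCG00000035078), the costimulatory receptor of B cells, macrophages and endothelium, had 9.62, 11.7 and 10.96 FPKM in the NC pigs and 27.0, 23.7 and 22.2 FPKM in the HFCF pigs. The groups were widely separated and each was tight (log2 fold change 1.17, SE 0.15, adjusted p = 0.00296, limma). It lay between 0.81 and 0.98 under the 3 other scalings and kept its call in all 15 alternatives.

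The receptors for TNF were not called. TNFRSF1A (ENSSSCG00000000708) had 58.4, 62.2 and 63.8 FPKM in the NC pigs and 70.2, 56.4 and 54.7 FPKM in the HFCF pigs. The values were interleaved, and the 95% interval of the log2 fold change ran from -0.38 to 0.31 (limma). After rescaling it was -0.39 by median ratios (adjusted p = 0.0795, limma), -0.29 as TPM and -0.10 by quantiles. TNFRSF1B (ENSSSCG00000022208), which is found mainly on leukocytes and endothelium, had 33.5, 40.4 and 25.6 FPKM in the NC pigs and 77.6, 44.3 and 36.4 FPKM in the HFCF pigs. Its groups overlapped and the first HFCF pig stood well above the rest (log2 fold change 0.61, SE 0.31, adjusted p = 0.172, limma). LTBR (ENSSSCG00000000706), the receptor for lymphotoxin and LIGHT on stromal and myeloid cells, had 33.1, 28.5 and 31.6 FPKM in the NC pigs and 29.7, 29.2 and 29.8 FPKM in the HFCF pigs. Its values overlapped, and the 95% interval of its log2 fold change ran from -0.37 to 0.23 (limma). After rescaling the log2 fold change of LTBR was -0.425 by median ratios (adjusted p = 0.0577, limma), -0.33 as TPM and -0.21 by quantiles.

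TNFRSF21 (ENSSSCG00000001727), or death receptor 6, had 5.32, 6.48 and 3.73 FPKM in the NC pigs and 24.8, 10.1 and 7.30 FPKM in the HFCF pigs. All HFCF pigs were above all NC pigs, but their own spread was wide (log2 fold change 1.26, SE 0.45, adjusted p = 0.0747, limma). Its log2 fold change was 0.75 (adjusted p = 0.113, limma) without the first HFCF pig. Its adjusted p was 0.043 (limma) without the third HFCF pig and ranged from 0.043 to 0.19 over 15 alternatives. TNFRSF12A (ENSSSCG00000027130), or Fn14, the receptor of TWEAK, had 12.3, 13.3 and 7.09 FPKM in the NC pigs and 14.1, 6.501 and 0.00605 FPKM in the HFCF pigs. The third HFCF pig thus fell far out of the range of all other pigs. Among 6063 genes with at least 5 FPKM in the other HFCF pigs, TNFRSF12A was the 1 gene under a hundredth of both in that library. Its log2 fold change of -2.30 (adjusted p = 0.334, limma) was -0.13 without that pig. TNFRSF25, the death-domain receptor of TL1A, had 3.38, 2.84 and 4.27 FPKM in the NC pigs and 1.52, 5.72 and 6.61 FPKM in the HFCF pigs. Here the first HFCF pig was the lowest of the 6 and the other HFCF pigs the highest (adjusted p = 0.835, limma).

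The receptors of the B cell ligands were low and not called. TNFRSF13C, the BAFF receptor, had 0.169, 0.588 and 0.285 FPKM in the NC pigs and 0.705, 0.525 and 0.868 FPKM in the HFCF pigs (log2 fold change 0.92, adjusted p = 0.143, limma). TNFRSF17, or BCMA, a receptor of plasma cells, had 1.66, 1.58 and 3.22 FPKM in the NC pigs and 3.70, 1.20 and 0.655 FPKM in the HFCF pigs (adjusted p = 0.59, limma). In both the groups overlapped. The remaining tested receptors CD27, TNFRSF11A, TNFRSF19, NGFR and EDAR overlapped between the groups and had adjusted p-values of 0.271 to 0.988 (limma), with HFCF means from 0.159 FPKM for EDAR to 2.95 FPKM for TNFRSF11A. TNFRSF4 (OX40) and TNFRSF9 (4-1BB), the receptors of T cell costimulation, stayed under the filter. TNFRSF4 was listed at 0 in every NC pig and had 0.109, 0 and 0.194 FPKM in the HFCF pigs, and TNFRSF9 did not exceed 0.0667 FPKM in any pig.

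Of the TRAFs, TRAF1 was called. TRAF1 (ENSSSCG00000005511), an adaptor without a RING domain that is itself induced by NF-kB, had 4.44, 4.74 and 2.86 FPKM in the NC pigs and 12.01, 9.19 and 11.9 FPKM in the HFCF pigs. The HFCF pigs were close together and clear of the NC pigs (log2 fold change 1.46, SE 0.24, adjusted p = 0.00617, limma). TRAF1 made up 25.5% to 45.6% of the summed TRAF level on chow and 55.2% to 66.9% on the HFCF diet. TRAF6, the ubiquitin ligase shared by CD40, RANK and toll-like receptors, had 2.37, 2.57 and 2.74 FPKM in the NC pigs and 3.56, 3.60 and 3.43 FPKM in the HFCF pigs. These values did not overlap, but the log2 fold change, 0.45 (adjusted p = 0.0961, limma) was near that of the average gene and was -0.05 after quantile normalization. TRAF5, an adaptor of several lymphocyte receptors, had 4.05, 2.39 and 4.63 FPKM in the NC pigs and 3.61, 2.75 and 2.09 FPKM in the HFCF pigs (adjusted p = 0.427, limma). TRAF4 had at most 1.46 FPKM and overlapped between the groups (adjusted p = 0.756, limma).

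Ligand and receptor levels of a pair were then set against each other within each pig as the difference of log2(FPKM + 0.1), which is described here without a test. For BAFF over its receptor TNFRSF13C the difference was -0.87, -1.47 and 0.06 on chow, against 3.60, 2.73 and 1.79 on the HFCF diet. For TNFSF15 over TNFRSF25 it was -4.19, -2.87 and -3.79 on chow, against 2.08, -0.94 and -1.90 on the HFCF diet. In every HFCF pig both ligands thus stood higher against these receptors than in any NC pig, which restates the ligand rises given above. Other receptors of these ligands were not set against them. For TNFSF13 over TNFRSF17 the mean difference was 0.93 in the NC group and 3.21 in the HFCF group, again without overlap. TNFSF12 over TNFRSF12A had 1.54, 1.32 and 2.06 on chow, against 2.06, 3.23 and 9.13 on the HFCF diet, where the groups overlapped and the last value is that of the pig with little TNFRSF12A. For CD40LG over CD40 the groups overlapped, with means of -6.42 and -6.13, and CD40 transcripts exceeded those of its ligand in all 6 pigs. For TNF over TNFRSF1A the mean was -8.62 in the NC group and -7.07 in the HFCF group, and over TNFRSF1B it was -7.71 and -6.803, both without overlap.

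The RANK axis was measured in all 3 of its parts. RANKL (TNFSF11) is given above, and its receptor TNFRSF11A had 2.80, 1.60 and 1.25 FPKM in the NC pigs and 4.15, 2.89 and 1.82 FPKM in the HFCF pigs, with overlap (adjusted p = 0.271, limma). The decoy receptor osteoprotegerin, TNFRSF11B, carries no symbol in the table and was found through its identifier ENSSSCG00000027762, which is annotated there as a pseudogene. It had 0.953, 1.15 and 2.45 FPKM in the NC pigs and 13.5, 21.8 and 10.0 FPKM in the HFCF pigs. This decoy stood at a level above that of RANKL and RANK in every HFCF pig, and its rise had a log2 fold change of 3.27 (SE 0.41, adjusted p = 0.00272, limma).

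Of 82 further genes of the pathway, from receptor adaptors to response genes, 73 were found by name and 71 were tested. Called higher were 13 of them (18.3%, against 22.8% of all tested genes). Called lower were 2 of the 71, where 6.16% of all tested genes were lower. Their median log2 fold change over the 71 was 0.26, against 0.32 for all tested genes. After median-ratio scaling 8 were higher and 8 lower (11.3% each, against 13.2% and 12.8% of all tested genes). By quantiles the split was 7 and 5 (9.86% and 7.04%, against 11.4% and 11.6%), and as TPM it was 9 and 6 (12.7% and 8.45%, against 14.5% and 9.93%). The 5 largest rises were those of CCL5, TNFAIP8L2, CXCL10, TRAF3IP3 and TNFAIP8. All but TRAF3IP3 were counted as TNF response genes, of which 4 of 12 tested were called higher (33.3%, against 22.8% of all tested genes). The other 8, among them CCL2, VCAM1 and ICAM1, were not called. Their log2 fold changes ran from -0.53 for IL6 to 1.23 for CXCL8. The group of TNF response genes includes TNFAIP8L2, a relative of TNFAIP8 by name. Whether TNF induced any gene of the group was not tested. CCL5, a T cell attracting chemokine, had 2.10, 0.994 and 2.82 FPKM on chow and 84.1, 18.9 and 17.5 FPKM on the HFCF diet (log2 fold change 3.99, adjusted p = 0.00616, limma). CXCL10, an interferon-induced chemokine, rose from 1.52 ± 0.529 to 15.5 ± 2.78 FPKM (SD, n = 3 each, log2 fold change 3.31, adjusted p = 0.00105, limma). TNFAIP8L2, or TIPE2, an inhibitor of immune cell activation, rose from 0.325 ± 0.195 to 5.19 ± 3.08 FPKM (SD, n = 3 each; log2 fold change 3.63, adjusted p = 0.00455, limma). TNFAIP8 rose from 1.03 ± 0.256 to 6.79 ± 2.58 FPKM (log2 fold change 2.56, adjusted p = 0.00296, limma), and TRAF3IP3, a TRAF3-binding protein of lymphocytes, from 0.756 ± 0.345 to 6.61 ± 1.38 FPKM (log2 fold change 3.02, adjusted p = 0.00173, limma). These 5 rises kept their calls in all 15 alternatives.

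Among the adaptors and kinases near the receptor, 2 of 15 tested genes were called higher (TAB3 and MAP3K7), 13.3% against 22.8% of all tested genes. Of the ubiquitin editors and inhibitors, 2 of 11 (18.2%) were called higher (XIAP and TNIP2) and 1 lower (USP2, where 6.16% of all tested genes were lower), and of the NF-kB subunits and IkB genes REL was called higher and NFKBIA lower among 9. USP2, a deubiquitinase, had 13.9, 8.98 and 8.05 FPKM on chow and 3.56, 2.75 and 4.99 FPKM on the HFCF diet (log2 fold change -1.43, adjusted p = 0.013, limma). NFKBIA, the inhibitor IkB alpha, had 133.5 ± 38.3 FPKM on chow and 73.9 ± 13.7 FPKM on the HFCF diet (SD, n = 3 each), and its adjusted p of 0.0482 (limma) was 0.05 or more in 9 of 15 alternatives. RELA, the main transactivating subunit, had 41.6 ± 1.10 and 37.8 ± 1.86 FPKM (SD, n = 3 each; adjusted p = 0.412, limma). The median log2 fold change of the 9 NF-kB and IkB genes was -0.10. Of them 4 were lower without overlap (RELA, RELB, NFKB2 and NFKBIA) and 1 higher, against 12.1% and 36.1% of all tested genes. No caspase or other death effector was called among 6 tested by limma, 3 had an unadjusted p under 0.05 (42.3% of all tested genes did), and CASP8, which met the rule of the study (ratio of group means 2.62, unadjusted p = 0.0485), had 1.44 ± 0.70 and 3.77 ± 2.07 FPKM (SD, n = 3 each; adjusted p = 0.116, limma). MAPK9, a JNK kinase, was also called higher (log2 fold change 0.80, adjusted p = 0.0363, limma). Of 15 alternatives the call held in 12 for XIAP, 10 for TAB3, 8 for MAP3K7 and for TNIP2, and 5 for REL and for MAPK9. Of the proteases that shed or mature the ligands, ADAM10 was called, with 0.859 to 1.22 FPKM on chow and 3.49 to 5.54 FPKM on the HFCF diet (log2 fold change 1.99, adjusted p = 0.00311, limma), whereas ADAM17, which sheds TNF, had 5.44 and 7.95 FPKM (adjusted p = 0.0872, limma).

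Leaving out pigs 1 at a time left 7 to 9 members called higher and 0 called lower, where 12.7% to 18.2% of all tested genes were called higher. All of TNFSF13B, TNFSF15, TNFSF8, TNFSF13, TNFSF12, CD40 and TRAF1 were called with any 1 pig left out. With the 9 other settings 6 to 10 members were called, where the share of all tested genes called higher ran from 11.4% to 26.9%, and TNFSF18 and TNFSF8 were not tested once the filter was raised to 1 FPKM.

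**Figure D4:**
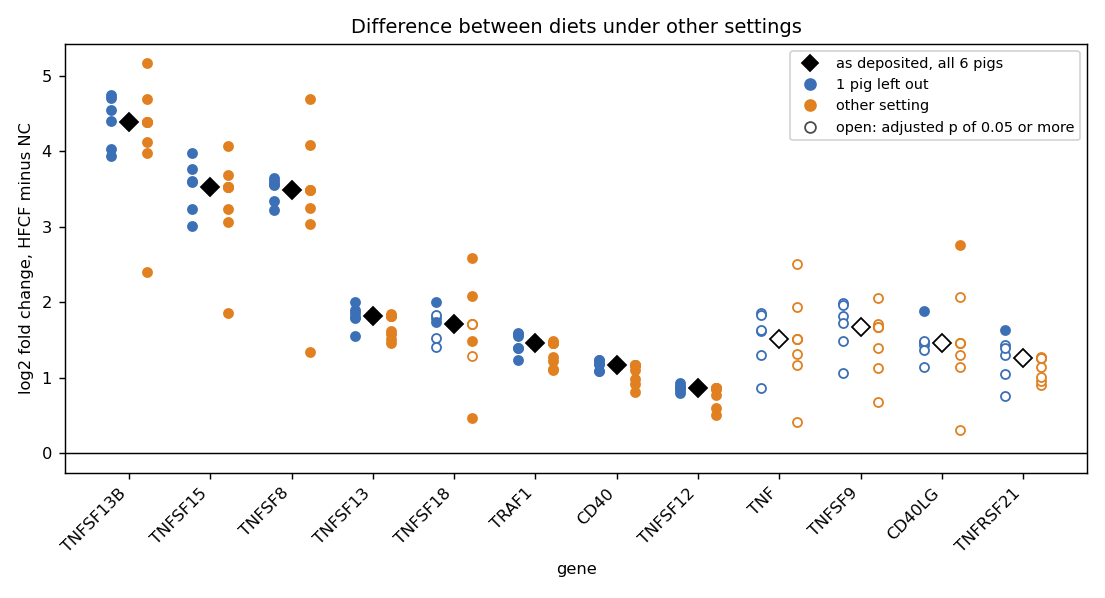
Log2 fold change, HFCF minus NC, of the 8 called members and of TNF, TNFSF9, CD40LG and TNFRSF21 with all 6 pigs, with 1 pig left out and under the other settings, with open symbols for an adjusted p of 0.05 or more (limma). CD40 and TNFSF12 stay within 0.81 to 1.23 and 0.51 to 0.93, whereas TNFSF13B runs from 2.40 to 5.16.

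Several leukocyte marker lists had higher summed levels in the HFCF pigs, but outside the macrophage lists most of their genes were not called. Of all tested genes 22.8% were called higher, and 42.3% had an unadjusted p under 0.05 in either direction (limma). Of 13 macrophage markers tested, 12 were called higher, and their summed level was 48.8 to 60.6 FPKM in the NC pigs and 707.0 to 1834 FPKM in the HFCF pigs. The defining marker CD68 had 3.65 to 5.67 FPKM and 98.0 to 261.0 FPKM. Lipid-laden macrophage markers, 6 of 10 called higher, summed to 297.5 to 359.4 FPKM and 1311 to 3404 FPKM. Markers of NK and cytotoxic cells, 3 of 8 entries called higher and 5 at an unadjusted p under 0.05, went from 2.55 to 3.93 FPKM up to 33.9 to 115.8 FPKM. GZMA was entered more than once, with adjusted p-values of 0.0191 and 0.22 (limma), and GZMB was not found by name. Dendritic cell markers, 2 of 5 called higher, went from 0.971 to 2.10 FPKM up to 4.87 to 15.4 FPKM. Of these, FCER1A alone had 10.5, 2.16 and 12.2 FPKM in the HFCF pigs. Mast cell markers, 1 of 3 tested called higher, summed to 1.33 to 3.04 FPKM and 3.07 to 5.75 FPKM. T cell markers, 3 of 10 called higher and 7 at an unadjusted p under 0.05, summed to 1.16 to 1.66 FPKM and 4.50 to 22.2 FPKM. B and plasma cell markers, 1 of 7 tested called higher, summed to 9.04 to 14.3 FPKM and 39.9 to 59.6 FPKM, of which CD79A alone had 34.1 to 38.0 FPKM on the HFCF diet. Endothelial markers, 0 of 8 called by limma and 2 at an unadjusted p under 0.05, overlapped between the groups (138.4 to 248.0 and 113.6 to 282.5 FPKM). Contractile smooth muscle markers were called lower in 7 of 10, where 6.16% of all tested genes were called lower. The part of these cell types in the rise of the members was not tested.

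The first HFCF pig held the most macrophage transcripts, 2.43 times the mean of the other HFCF pigs, and 4.81 times that mean for T cell and 3.41 times for NK and cytotoxic cell markers. It also had 95.1 FPKM of summed neutrophil markers (1 of 4 tested called higher) against 13.7 and 6.37 FPKM, and 2883 FPKM of summed red blood cell markers (0 of 2 tested called by limma, 0 at an unadjusted p under 0.05) against 85.6 and 95.5 FPKM. It was the highest HFCF pig in 6 of the 8 called members, where it was highest in 57.7% of all genes called higher. Its level over the mean of the other HFCF pigs was 2.92 for TNFSF15, 2.65 for TNFSF13B, 1.82 for TNFSF8 and 1.73 for TNFSF13, but 1.18 for CD40, 1.14 for TRAF1, 0.97 for TNFSF12 and 0.865 for TNFSF18. Without this pig the same 8 members were called, and whether blood in the sample took part in its values was not tested.

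**Figure D5:**
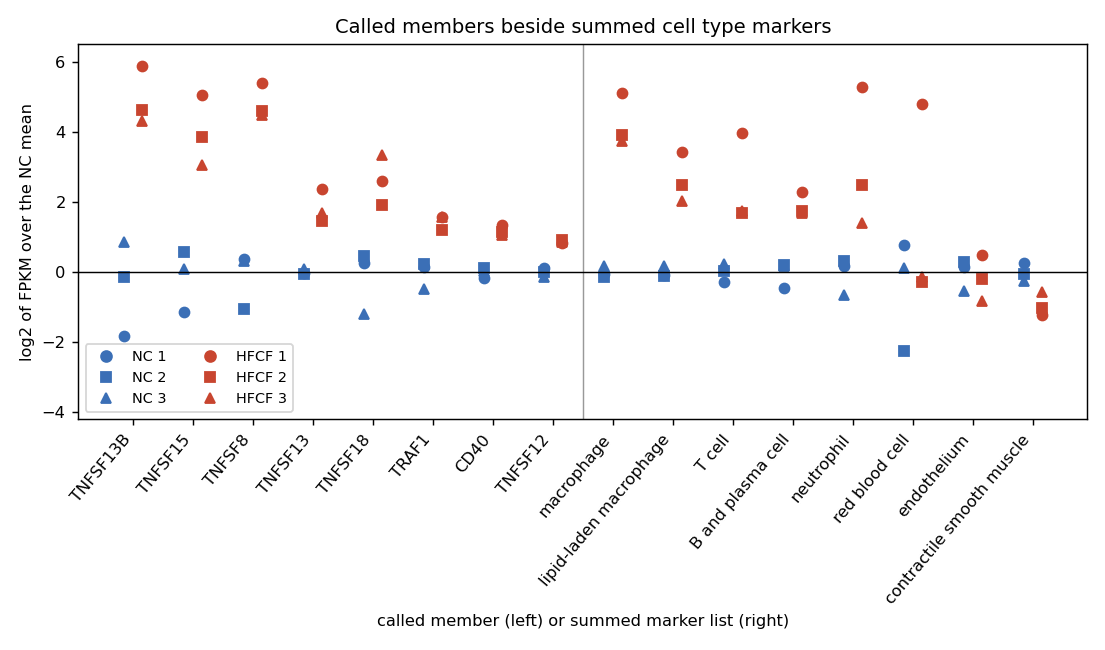
Log2 of FPKM over the NC mean in each pig for the 8 called members (left) and for summed marker lists (right). The first HFCF pig (red circles) is highest for TNFSF13B, TNFSF15, TNFSF8 and TNFSF13 and for the macrophage, T cell, neutrophil and red blood cell lists, whereas the HFCF pigs nearly coincide for TNFSF12.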

How the data were processed

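Total RNA of the abdominal aorta was sequenced with 1 library per pig. The authors trimmed reads with cutadapt 1.9, aligned them with HISAT2 and assembled transcripts with StringTie, and the deposited values are FPKM per gene. The RefSeq annotation used here for neighbouring genes is of a later assembly than the one in the methods, so no coordinates are given. Values of 0.0001 FPKM or less were read as 0. Depth per library was not given, and precision was taken from the spread of the 3 pigs of a group, which the labels give as separate samples.

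The 15384 genes with a mean of at least 0.1 FPKM were fitted as log2(FPKM + 0.1) with limma 3.58.1 in R 4.3.3 (a single factor for diet, moderated variances with a trend). The script was tested on simulated data. An exact permutation test of 3 against 3 pigs cannot go below p = 0.1, so none was used. Of the 35 member identifiers, 31 were in the name table, each with the same symbol.

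Members, lists and tests were chosen with earlier results of these data known. Values are given pig by pig for called members, for uncalled members with a mean of at least 5 FPKM and for the partners of called members. From the pathway list, the 5 largest called rises and up to 3 falls were named. Other genes given pig by pig (among them TNF, TNFSF9, TNFSF11, TNFSF14, CD70, TRAF5 and TRAF6), the other pathway genes named and the relatives found by identifier were chosen after their values were seen. As alternatives, the pseudocount was set to 1 or 0.01, the filter was dropped or raised to 1 FPKM, values were rescaled (to TPM, by median ratios or by quantiles), the variance trend was left out, the replicate number was added as a block, and pigs were left out singly. No sequences were used here.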

Additional observations from a re-analysis of the deposited data

How the results depend on the processing

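The direction of all 8 called members held under every alternative in which they were tested, and 7 of them kept an adjusted p under 0.05 (limma) throughout. The exception was TNFSF18, lost in 6 of 14. The number of members that passed the study's thresholds, 12 of 30 tested, was 6 of 18 when the filter was raised to 1 FPKM and 16 of 35 without one (24.5% and 20.6% of all genes tested there), and of 30 it was 7 after quantile normalization, 8 by median ratios and 9 as TPM (21.6%, 22.5% and 22.6% of all genes), and 9 to 12 with 1 pig left out (21.6% to 26.8%). For the pathway list, 13 genes higher became 8 by median ratios and 7 by quantiles, where 13.2% and 11.4% of all tested genes were higher. The count was 7 with a replicate block (9.86%, against 14.5% of all tested genes). With 1 pig left out it was 8 to 14, where 12.7% to 18.2% of all tested genes were higher. The 2 genes lower became 8 by median ratios, 5 by quantiles and 6 as TPM, where 12.8%, 11.6% and 9.93% of all tested genes were lower. The count was 1 with a pseudocount of 1, without a filter, without a trend or with a replicate block. In these settings 5.86%, 3.96%, 5.04% and 3.51% of all tested genes were lower. With 1 pig left out it was 1 to 2, where 2.85% to 5.1% of all tested genes were lower. The cause of these moves was not tested. Deviations of same-numbered pigs had correlations of 0.02, -0.08 and -0.07, against -0.07 to 0.13 for differently numbered pigs. With 3 pigs per group these values cannot show whether replicate numbers paired the samples. With the replicate block 7 members (23.3%) were called higher and 0 lower, against 14.5% and 3.51% of all tested genes. Values of the ligands under 1 FPKM are low, and the read totals behind them are unknown.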

Other observations

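Several relatives of the family were listed by identifier or description only. FAS (ENSSSCG00000010448), the receptor of FASLG, had 1.73, 4.27 and 2.42 FPKM in the NC pigs and 2.19, 2.33 and 2.57 FPKM in the HFCF pigs (log2 fold change -0.15, adjusted p = 0.771, limma). A gene described as the decoy receptor TNFRSF6B had 11.5 ± 0.80 and 11.3 ± 1.82 FPKM (SD, n = 3 each; adjusted p = 0.901, limma). TNFRSF18, or GITR, the receptor of TNFSF18, had at most 0.0570 FPKM in the NC pigs and 0.385, 0.0725 and 0.151 FPKM in the HFCF pigs (adjusted p = 0.139, limma). TNFRSF13B, or TACI, a further receptor of BAFF and APRIL, did not exceed 0.418 FPKM in any pig (adjusted p = 0.901, limma).

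The identifier ENSSSCG00000020906 carries the symbol GHSR but the description of TNF superfamily member 10, the death ligand TRAIL, and the files do not settle which of these its fragments come from. It had 0.126, 1.85 and 0.118 FPKM in the NC pigs and 1.42, 4.57 and 5.96 FPKM in the HFCF pigs (log2 fold change 2.94, adjusted p = 0.0534, limma).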
